A study of Mus musculus with 6 samples.

Results

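The genes of the MHC class I presentation pathway were followed in nuclear CAGE libraries of mouse embryonic stem cells (mESCs) and of Oli-neu, a line that stands for oligodendrocyte progenitor cells (mOPCs). The 10 genes were listed by name: the heavy chains H2-K1 and H2-D1, the light chain B2m, the peptide transporter subunits Tap1 and Tap2, the loading factor Tapbp, the immunoproteasome subunits Psmb8 and Psmb9, and the regulators Nlrc5 and Irf1. They were 10 of 35325 genes counted, coding for proteins or long non-coding RNAs, and 9 of the 10 passed the filter on low counts. CAGE (cap analysis of gene expression) sequences a short tag from the 5′ end of each captured capped RNA, so a gene gives 1 tag per RNA whatever its length. Levels of different genes are set side by side here without a correction for length. By the authors' CAGE methods, tags aligning to several places were not counted. This can lower the levels of genes with close relatives such as H2 genes. For each gene, tags within 500 bp of its annotated 5′ ends on its strand were summed and scaled to the library's total (CPM, counts per 1000000 tags).

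The 3 mESC libraries came from R08, a male line grown without feeder cells in medium with serum and leukaemia inhibitory factor. The 3 mOPC libraries came from Oli-neu, which is immortalised with the t-neu oncogene and was grown in N2 medium with thyroid hormones and the growth factors bFGF and PDGF-BB. The labels name no interferon, drug or other stimulus for either line, and the H-2 alleles of the lines are not given in the sources used here. Each cell type was thus 1 line, and nothing in the sources says that the CAGE libraries of a line came from separate cultures. The p-values therefore measure the spread between these libraries, which may be technical. The libraries of each cell type carried 1 preparation label in the files, so that preparation and cell type cannot be told apart.

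MHC class I molecules carry peptides from inside the cell to its surface, where CD8+ T cells read them. The proteasome cuts proteins into peptides, the Tap1–Tap2 transporter moves these into the endoplasmic reticulum, and Tapbp (tapasin) holds the transporter next to the empty heavy chain and B2m until a peptide fits. Nlrc5 is the transactivator of class I genes and works through factors bound upstream of their starts, and Irf1 is an interferon-induced transcription factor that acts on several genes of the pathway. Embryonic stem cells are known for low surface class I, and cells of the oligodendrocyte lineage for class I that rises with interferon.

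Libraries held between 16657021 and 40928704 tags, of which 79.7 to 85.0% lay in the windows of the genes counted. The position with most tags took 0.508 to 0.667% of a library in mESCs and 5.385 to 5.917% in mOPCs, and composition factors (TMM) ranged from 0.9738 to 1.045. Of 8 mESC markers, 8 were lower in mOPCs, and Pou5f1 and Nanog had 0 tags there. Of 8 mOPC markers, 7 were tested and were higher in mOPCs, while Nkx2-2, a factor of this lineage, had 6 tags over the mESC libraries and 0 over the mOPC libraries. Among 8 markers of leukocytes and microglia, Ptprc, Cx3cr1 and Itgam had 0 tags in all 6 libraries, and Csf1r had 1. The summed level of this list was 18.2 to 22.1 CPM in mESCs and 9.44 to 10.4 CPM in mOPCs. Nearly all of it came from Cd68, a lysosomal protein gene that was lower in mOPCs. Cd3e was called lower too, but all of its 76 tags lay at positions shared with another gene. Of 5 markers of fibroblasts and endothelium, 3 were tested, with 1 higher and 2 lower, and the sum was 4.44 to 5.31 CPM in mESCs and 9.76 to 12.4 CPM in mOPCs.

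Across all genes, 16713 could be tested with the quasi-likelihood test of edgeR, and a change counted at a Benjamini-Hochberg adjusted p under 0.05. Of these genes, 43.4% were higher and 47.8% lower in mOPCs, and the libraries of the cell types did not overlap for 91.4%. A call was therefore the usual outcome for any gene, and the size and direction of a change say more than its passing the test. Of the 9 class I genes tested, 8 were higher in mOPCs, 1 was lower, and none had libraries that overlapped between the cell types. Their median log2 fold change was 1.46, beside a median of -0.116 over all genes tested, and they ranged from -2.94 to 3.81.

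**Figure D1:**
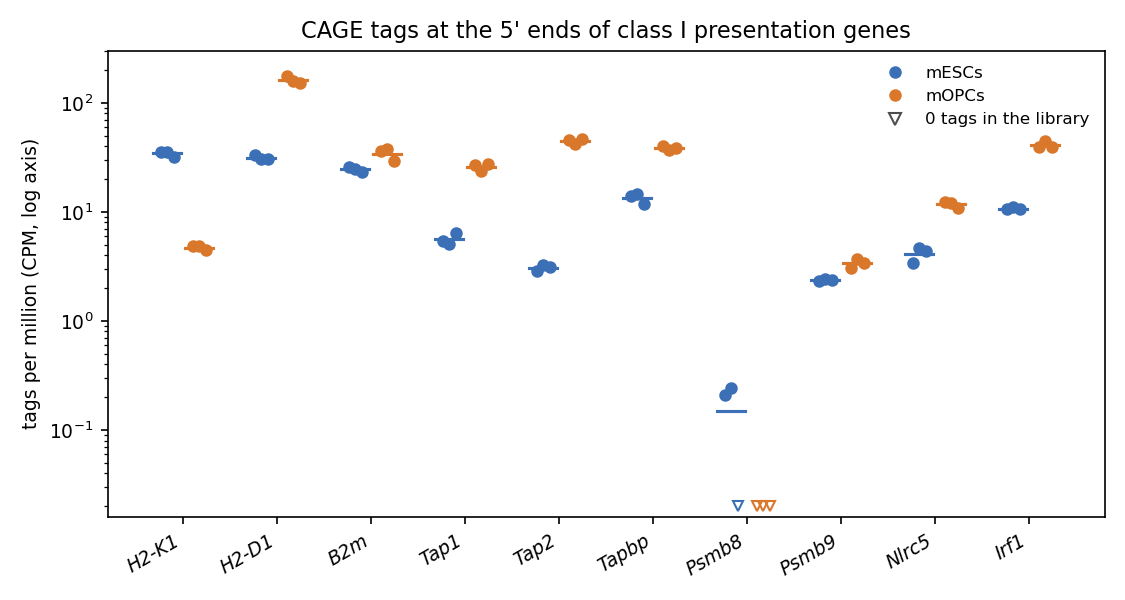
Level in CPM on a log axis for the 10 class I presentation genes, with a point for each of the 3 mESC and 3 mOPC libraries, a line at each mean and open triangles for libraries with 0 tags. The mOPC libraries lie below the mESC libraries for H2-K1 and above them for the 8 other genes tested, while Psmb8 has tags in only 2 mESC libraries.

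The heavy chain genes moved in opposite directions. H2-K1 (chr17:33996017-34000347, minus strand, mm10) codes for the heavy chain of the K molecule. It stood at 35.5, 35.7 and 32.1 CPM in the mESC libraries and at 4.88, 4.82 and 4.42 CPM in the mOPC libraries. Every mOPC library lay far below every mESC library, and H2-K1 was 7.70-fold lower in mOPCs, with a log2 fold change of -2.94 ± 0.12 (SE, n = 3 libraries each, edgeR adjusted p = 6.03e-43). Whether tags of H2 alleles that differ from the reference were lost in the alignment to mm10 was not tested, for this level or for the start positions of H2-K1. H2-D1 (chr17:35262730-35267499, plus strand), the heavy chain gene at the other end of the same complex, stood at 33.2, 30.5 and 30.3 CPM in mESCs. In mOPCs it reached 174.5, 158.2 and 151.4 CPM. The cell types did not overlap, and H2-D1 was 4.89-fold higher in mOPCs, with a log2 fold change of 2.29 ± 0.09 (SE, n = 3 each, edgeR adjusted p = 1.44e-43).

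The contrast between the heavy chains also held within each library, where no scaling enters. In the mESC libraries H2-D1 had 0.934, 0.854 and 0.944 times the tags of H2-K1. In the mOPC libraries it had 35.7, 32.8 and 34.2 times as many. Counted tags of the heavy chains were thus about level in mESCs, and nearly all of those of mOPCs came from H2-D1. Their summed level was 68.7, 66.2 and 62.4 CPM in mESCs and 179, 163 and 156 CPM in mOPCs.

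H2 genes resemble each other, and the authors' CAGE methods keep only uniquely aligned tags. The bases at the main start positions were therefore searched in transcripts of other genes. The search took 12 main positions of the 10 genes for which a sequence was at hand, and the H2-K1 position between its main ones. Of these 13 positions, 0 had 27 bases that occurred with up to 2 mismatches in a transcript of another gene, among 141767 transcripts. With 21 bases, the shortest tag, 3 did. One of them was the H2-D1 start, which resembled a stretch of Zfp248, a zinc finger gene, and none matched another H2 gene. The genome outside annotated transcripts was not searched.

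The bases at the heavy chain starts are printed here because the main start of H2-K1 differed between the cell types. They come from GENCODE transcripts, run 5′ to 3′ on the strand of the gene and are 27 bases long, and capitals mark the positions where most tags of a cell type started.
H2-K1, chr17:34000259-34000285, minus strand: CaGaagtcgcgaatcgccgacaggtgc
H2-D1, chr17:35263095-35263121, plus strand: Cagacacccgggatcccagatgggggc

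In mESCs, 67.8, 69.4 and 67.3% of H2-K1 tags started at 34000285, the first capital. In mOPCs, only 1.87, 1.44 and 0.552% started there, which was 2, 2 and 1 tags. The mOPC tags started 2 bp further downstream at 34000283, the second capital, with 91.6, 86.3 and 89.5% of the gene's tags. In mESCs this position held 4.01, 2.52 and 4.74%. On the CPM scale the difference between the cell types reversed at this position, which stood at 1.43, 0.901 and 1.52 CPM in mESCs and at 4.47, 4.16 and 3.96 CPM in mOPCs. The annotated 5′ end of a GENCODE transcript lies at 34000283. This was a description of positions, with no test.

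H2-D1 had the same main start in both cell types. At 35263095, 80.4, 82.7 and 78.9% of its tags started in mESCs and 80.3, 78.5 and 79.1% in mOPCs. Its use of start positions thus differed by less than the spread between libraries, while its level rose. The position lies 365 bp from the nearest GENCODE 5′ end and 1 bp from the RefSeq start. With a window of 100 bp, H2-D1 therefore kept only 3 tags over the mESC libraries and 48 over the mOPC libraries.

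**Figure D2:**
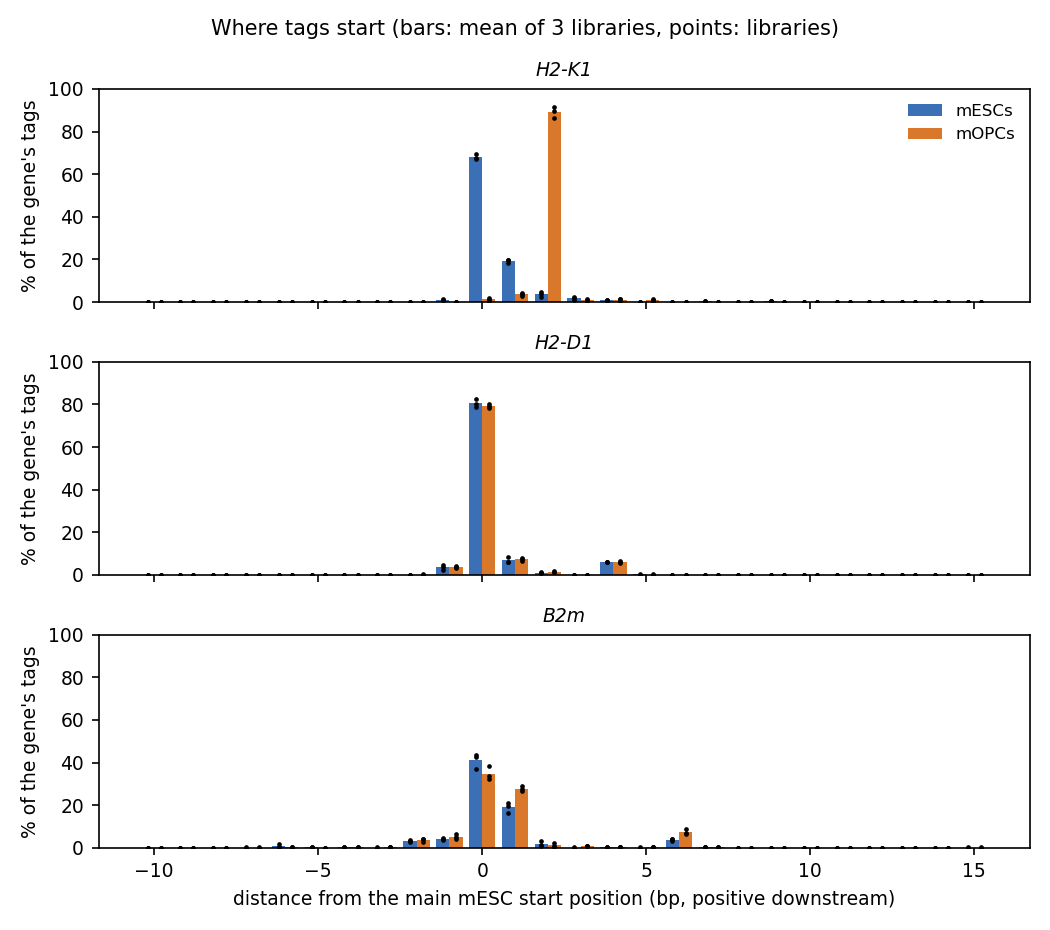
Share of a gene's tags (percent) by distance in bp from its main mESC start position for H2-K1, H2-D1 and B2m, with bars for the mean of 3 libraries and points for single libraries. The mOPC tags of H2-K1 start 2 bp downstream of the mESC tags, while H2-D1 and B2m keep 1 main position.

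B2m (chr2:122147686-122153083, plus strand), the light chain shared by all class I molecules, changed little. It stood at 25.8, 24.8 and 23.3 CPM in mESCs and at 35.8, 37.6 and 29.3 CPM in mOPCs. The lowest mOPC library lay close above the highest mESC library, and B2m was 1.32-fold higher in mOPCs (log2 fold change 0.40 ± 0.10, SE, n = 3 each, edgeR adjusted p = 9.78e-05). Heavy chain tags numbered 2.66, 2.67 and 2.68 for each B2m tag in mESCs and 5.02, 4.34 and 5.32 in mOPCs. The main start of B2m, 122147684, took 42.6, 43.6 and 37.1% of its tags in mESCs and 33.7, 38.3 and 32.1% in mOPCs, with ranges that overlapped. The position 1 bp downstream held 16.5 to 21.2% in mESCs and 26.8 to 29.0% in mOPCs, and that 6 bp downstream 3.03 to 4.20% and 6.65 to 8.92%, without overlap.

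The transporter genes showed some of the larger rises. Tap2 (chr17:34203527-34216321, plus strand) had 2.88, 3.24 and 3.09 CPM in mESCs and 45.3, 41.9 and 46.4 CPM in mOPCs. It was 14.0-fold higher in mOPCs, with a log2 fold change of 3.81 ± 0.12 (SE, n = 3 each, edgeR adjusted p = 1.2e-49), and moved from the 27.2th to the 70.7th percentile of the genes tested. Its partner Tap1 (chr17:34187553-34197225, plus strand) had 5.41, 5.04 and 6.35 CPM in mESCs and 26.8, 23.7 and 27.6 CPM in mOPCs. Tap1 was 4.45-fold higher in mOPCs, with a log2 fold change of 2.15 ± 0.12 (SE, n = 3 each, edgeR adjusted p = 3.82e-31). Tap2 and Tap1 make 1 transporter of 1 subunit each, yet Tap2 had 0.532, 0.643 and 0.487 times the tags of Tap1 in mESCs and 1.69, 1.77 and 1.68 times in mOPCs. The order of the subunits was thus reversed between the cell types in every library. The most used Tap2 position also differed, with 34204522 in mESCs (16.5, 13.0 and 15.8% of tags) and 34204549 in mOPCs (14.9, 15.1 and 16.7%), both within 1 broad cluster of starts. The mESC position rests on 18, 7 and 9 tags, close to the 17, 7 and 5 tags at 34204483 in the same cluster.

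Tapbp (chr17:33915899-33929292, plus strand) had 13.9, 14.5 and 11.7 CPM in mESCs and 40.4, 37.0 and 38.8 CPM in mOPCs. It was 2.75-fold higher in mOPCs, with a log2 fold change of 1.46 ± 0.10 (SE, n = 3 each, edgeR adjusted p = 5.47e-25). Part of its window is shared with the start of Zbtb22, a zinc finger gene on the same strand, and 72.7% of the Tapbp tags lay outside the shared part. From these alone the log2 fold change was 1.96.

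The immunoproteasome genes did not follow the transporter. Psmb9 (chr17:34181987-34187764, minus strand), which starts next to Tap1 on the other strand, had 2.32, 2.40 and 2.39 CPM in mESCs and 3.06, 3.71 and 3.37 CPM in mOPCs. It was 1.37-fold higher in mOPCs, with a log2 fold change of 0.46 ± 0.18 (SE, n = 3 each, edgeR adjusted p = 0.0135). This call was not kept when mESC replicate 2 (edgeR adjusted p = 0.0589), mESC replicate 3 (0.0681) or mOPC replicate 2 (0.0519) was left out, nor with DESeq2 or with libraries thinned to equal depth (adjusted p = 0.106 for each). Tap1 had 2.33, 2.10 and 2.66 times the tags of Psmb9 in mESCs and 8.78, 6.39 and 8.17 times in mOPCs, although the genes share the stretch between their starts. Psmb8 (chr17:34197721-34201454, plus strand), the third catalytic immunoproteasome subunit beside Psmb9 and Psmb10, had 8, 4 and 0 tags in the mESC libraries and 0 tags in each mOPC library. At 12 of 72972385 mESC tags it stood at 0.164 CPM, and 0 of 91692553 mOPC tags allows up to 0.0327 CPM (3 tags over the group). With the 12 mESC tags taken as exact, Psmb8 was thus at least 5.03-fold lower in mOPCs. This bound covers only the counting error of the mOPC tags, and Psmb8 was too low to be tested. Between its neighbours Tap1 and Tap2, which were both among the genes that rose, it was not detectable in mOPCs at this depth.

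Both regulators were higher in mOPCs. Irf1 (chr11:53770014-53778374, plus strand) had 10.6, 11.05 and 10.6 CPM in mESCs and 39.5, 44.4 and 39.5 CPM in mOPCs. It was 3.66-fold higher in mOPCs, with a log2 fold change of 1.87 ± 0.10 (SE, n = 3 each, edgeR adjusted p = 6.55e-32). Nlrc5 (chr8:94434356-94527272, plus strand) had 3.40, 4.68 and 4.34 CPM in mESCs and 12.2, 12.1 and 10.8 CPM in mOPCs. It was 2.76-fold higher in mOPCs, with a log2 fold change of 1.46 ± 0.14 (SE, n = 3 each, edgeR adjusted p = 6.96e-17). The Nlrc5 value depended on the window. It was 2.31 within 100 bp and 2.85 over the gene body.

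**Figure D3:**
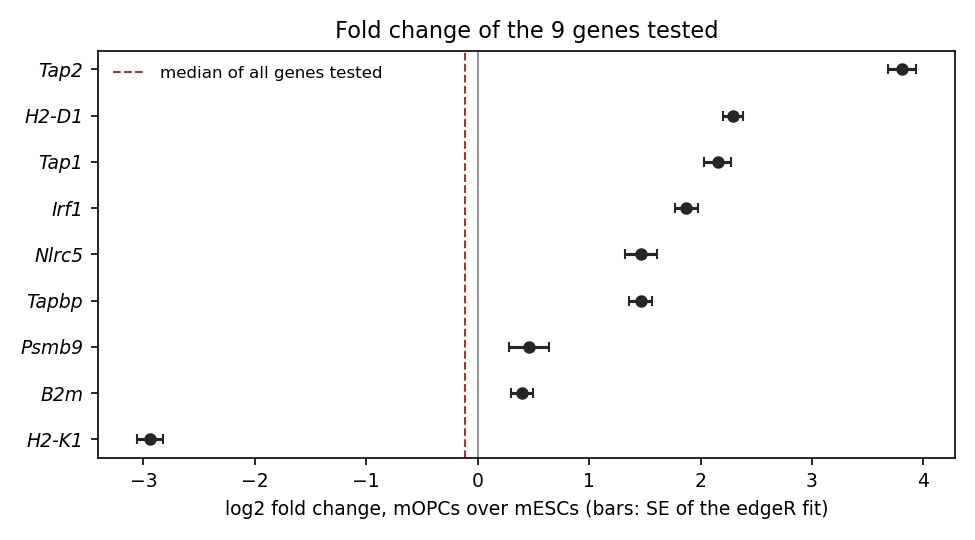
Log2 fold change (mOPCs over mESCs) of the 9 class I presentation genes tested, with the standard error of the edgeR fit as bars and the median of all genes tested (-0.116) as a dashed line. H2-K1 lies at -2.94, B2m and Psmb9 below 0.5, and the 6 other genes between 1.46 and 3.81.

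In order of level, mESCs had H2-K1 (34.4 ± 2.05 CPM, SD, n = 3) and H2-D1 (31.3 ± 1.61) on top, whose ranges overlapped, and then B2m (24.6 ± 1.26). Below these stood Tapbp (13.4 ± 1.46), Irf1 (10.7 ± 0.275), Tap1 (5.60 ± 0.674), Nlrc5 (4.14 ± 0.662), Tap2 (3.07 ± 0.184) and Psmb9 (2.37 ± 0.0421), with no overlap between neighbours. In mOPCs, H2-D1 stood alone at 161.3 ± 11.9 CPM, at the 95.7th percentile of the genes tested. Tap2 (44.5 ± 2.36), Irf1 (41.1 ± 2.81), Tapbp (38.7 ± 1.68) and B2m (34.2 ± 4.34) followed, each overlapping its neighbour. Tap1 (26.0 ± 2.04), Nlrc5 (11.7 ± 0.826), H2-K1 (4.71 ± 0.249) and Psmb9 (3.38 ± 0.327) came last, and did not overlap. Counted without the positions shared with Zbtb22, Tapbp stood at 7.37 ± 0.803 CPM in mESCs, below Irf1, and at 30.1 ± 2.05 CPM in mOPCs, overlapping B2m from below. H2-K1 thus went from the first place to the last but Psmb9 among the genes tested. In bulk libraries of this kind, fewer cells with a transcript and less of it in each cell cannot be told apart.

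Where a gene had several groups of start positions, the groups often changed unequally. Positions with at least 5 tags were joined into clusters when no more than 20 bp apart, and clusters with at least 5% of a gene's tags in any library were kept. For Nlrc5, the cluster furthest upstream (94434209-94434249) held 30.2, 35.9 and 37.5% of the tags in mESCs but 0.746, 1.71 and 1.82% in mOPCs. The cluster furthest downstream (94434382-94434396) held 17.1, 12.8 and 15.0% in mESCs and 78.7, 81.1 and 81.4% in mOPCs. In CPM the upstream cluster fell from 1.03, 1.68 and 1.63 to 0.0912, 0.208 and 0.195, and the downstream cluster went from 0.581, 0.600 and 0.651 to 9.62, 9.85 and 8.75. The summed Nlrc5 level therefore combined a cluster that was lower in mOPCs with one that was higher. These shares were described and not tested.

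Irf1 had a main cluster around 53770050 and another (53770442-53770540) downstream. The downstream cluster held 8.25, 4.89 and 6.15% of Irf1 tags in mESCs and 28.3, 29.7 and 33.7% in mOPCs, or 0.871, 0.540 and 0.651 against 11.2, 13.2 and 13.3 CPM. The main cluster was also higher in mOPCs, at 9.24, 10.1 and 9.44 against 25.6, 28.6 and 24.1 CPM. Both clusters thus had more tags in mOPCs, and the downstream cluster gained a larger share. In Tapbp, the cluster clear of Zbtb22 (33919463-33919689) held 49.1, 50.2 and 51.4% of tags in mESCs and 73.4, 70.2 and 71.3% in mOPCs. In Tap1, the most downstream of 3 clusters (34187785-34187856) held 12.7, 8.33 and 5.13% in mESCs and 21.3, 21.6 and 19.9% in mOPCs. Psmb9 kept 1 cluster, with 34187340 as its main position in all 6 libraries.

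**Figure D4:**
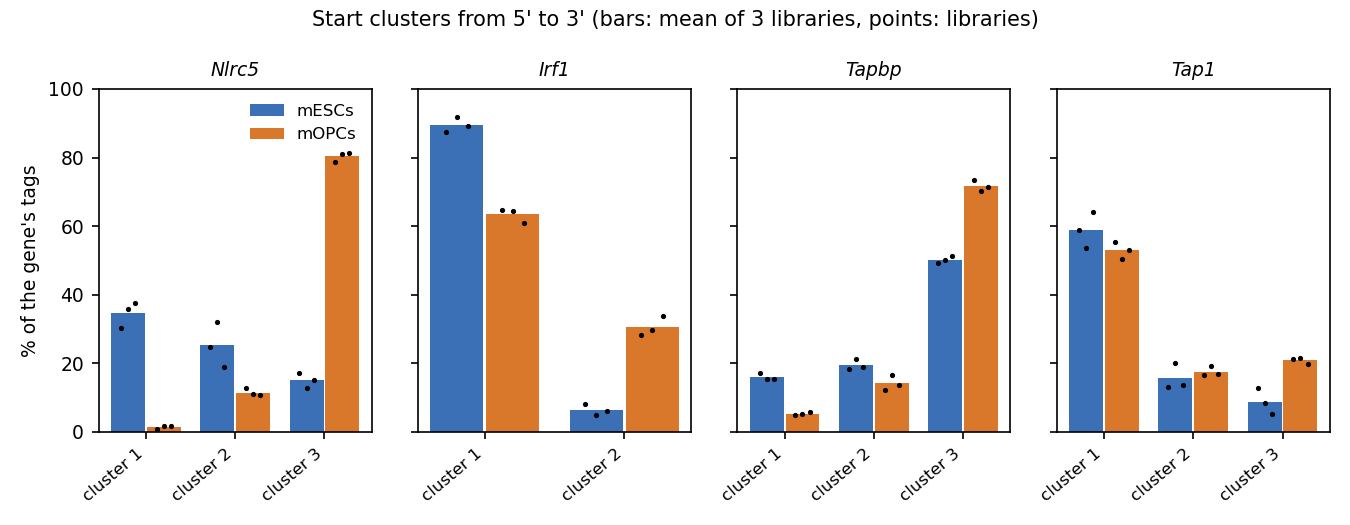
Share of a gene's tags (percent) in each start cluster of Nlrc5, Irf1, Tapbp and Tap1, ordered from 5′ to 3′, with bars for the mean of 3 libraries and points for single libraries. For each gene the last cluster holds a larger share in mOPCs than in mESCs, most of all for Nlrc5.

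The main mOPC start of Nlrc5 is printed because a match to the interferon-stimulated response element (ISRE) lies in its first bases, on the opposite strand. The ISRE, to which interferon regulatory factors bind, was searched as GAAANNGAAA on both strands. The 27 bases come from a GENCODE transcript, and capitals mark the match, which covers bases 8 to 17.
Nlrc5, chr8:94434386-94434412, plus strand: tggccacTTTCAGTTTCcacagagcgc

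Such a match was present in 0.21% of 32851 RefSeq promoters, in the 27 bases from the RefSeq start, which can differ from the main CAGE start. No sequence was at hand for the main mESC start of Nlrc5, 94434348, so its bases were not searched. In mESCs, 4.65, 7.69 and 6.25% of Nlrc5 tags started at 94434386, and in mOPCs 28.4, 32.0 and 29.3%. The search of these first bases was added after the positions had been seen. It covered the first 27 bases at all 13 searched positions, for the ISRE and the other motifs named below. The only other match was a CCAAT box at the main Psmb9 start. A match of letters is a description, and no binding was measured.

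Promoters of B2m and H2-K1 are printed because class I promoters share a known layout, in which an NF-kB site lies upstream of a CRE core and a CCAAT box. The RFX, CREB and NF-Y factors that recruit Nlrc5 bind such promoters, and no separate site for RFX was searched. The promoter of Irf1, which is not a class I gene, is printed beside them. The sequences are those of RefSeq on GRCm38.p6, limited to the bases upstream of annotated exons, 5′ to 3′ on the strand of the gene. Capitals mark matches to the ISRE, to GAS (the interferon-gamma activated site, TTCNNNGAA), to the NF-kB consensus, to the CRE core (TGACG) and to the CCAAT box (CCAAT), each searched on both strands.
B2m, chr2:122147437-122147685, plus strand: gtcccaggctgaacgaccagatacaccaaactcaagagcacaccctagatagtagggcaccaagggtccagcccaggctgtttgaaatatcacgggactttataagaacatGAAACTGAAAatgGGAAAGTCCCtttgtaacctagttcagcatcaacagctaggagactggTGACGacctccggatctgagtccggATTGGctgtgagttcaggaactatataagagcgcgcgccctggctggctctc
H2-K1, chr17:34000348-34000597, minus strand: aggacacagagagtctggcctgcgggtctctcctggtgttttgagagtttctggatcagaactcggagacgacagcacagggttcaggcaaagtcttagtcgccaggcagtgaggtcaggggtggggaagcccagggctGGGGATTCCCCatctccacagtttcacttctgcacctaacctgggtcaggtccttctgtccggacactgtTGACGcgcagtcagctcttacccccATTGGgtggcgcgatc
Irf1, chr11:53769764-53770013, plus strand: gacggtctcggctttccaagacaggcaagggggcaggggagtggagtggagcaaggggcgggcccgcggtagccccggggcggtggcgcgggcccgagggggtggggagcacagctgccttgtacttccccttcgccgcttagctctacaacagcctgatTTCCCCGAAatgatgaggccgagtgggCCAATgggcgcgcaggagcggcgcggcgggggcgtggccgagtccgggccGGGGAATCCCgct

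In B2m the matches upstream of the RefSeq start were an ISRE at -139 to -130, an NF-kB site at -126 to -117, a CRE core at -78 to -74 and a CCAAT box on the opposite strand at -53 to -49. Another CRE core lay downstream, at 45 to 49 on the opposite strand. H2-K1 and H2-D1 had the NF-kB site, the CRE core and the reverse CCAAT box but no ISRE of this exact form. Each also had a forward CCAAT box, at 9 to 13 in H2-K1 and at -53 to -49 in H2-D1. From the CRE core to the CCAAT box, first base to first base, the distance was 25 bp in H2-K1, in H2-D1 and in B2m. A CRE core and a reverse CCAAT box with 20 bases between them occurred in 31 of the 32851 promoters (0.0944%), of 27 genes. These included H2-K1, H2-D1 and B2m, from which the spacing was taken. The class I gene H2-M3 was also among them, as were genes outside the pathway such as Per1, Nasp and Calu. This spacing was searched after the matches had been seen. From the NF-kB site to the CRE core the distance was 70 bp in both heavy chain genes and 48 bp in B2m.

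The heavy chain promoters thus shared this layout. Relative to the main mESC start, the NF-kB site, CRE core and CCAAT box lay 173, 103 and 78 bp upstream in H2-K1 and 172, 102 and 77 bp in H2-D1. Aligned at the NF-kB site without gaps, the 2 promoters had 176 of 240 bases in common (73.3%). These are reference sequences, and the sequence of the lines was not examined. Irf1 had GAS at -90 to -82, a CCAAT box at -63 to -59 and NF-kB at -13 to -4 before its first RefSeq start, but no CRE core. It had no match before its second start, which lies in the downstream cluster. Psmb8 had GAS at -97 to -89, and Tapbp had CCAAT boxes only. The promoters of Tap1 and Psmb9 overlap on opposite strands, and their CRE core and CCAAT box are the same bases. The CRE core lay at -86 to -82 for Tap1 and at -144 to -140 for Psmb9. The CCAAT box lay at -222 to -218 and at -8 to -4, which is bases 3 to 7 from the main Psmb9 start. Over all promoters the ISRE occurred in 3.44%, GAS in 8.30%, NF-kB in 4.51%, the CRE core in 20.8% and the CCAAT box in 37.4%.

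Of 5 genes for loading and trimming, 3 were lower and 2 higher in mOPCs, beside 47.8% lower and 43.4% higher among all genes tested. The 3 that fell code for chaperones of the endoplasmic reticulum. Calr (calreticulin) fell from 419.1 ± 13.0 to 64.2 ± 4.73 CPM (SD, n = 3 each), with a log2 fold change of -2.77. Canx (calnexin) fell by 2.09 and Pdia3, which forms disulphide bonds in the loading complex, by 1.94 on the log2 scale. Erap1, the aminopeptidase that trims peptides, rose from 4.19 ± 0.304 to 13.2 ± 0.299 CPM (log2 fold change 1.59), and Tapbpl, a tapasin relative that edits peptides, rose by 0.92. The list's median was -1.94.

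All 6 proteasome genes of the list were lower in mOPCs (median log2 fold change -1.41), beside 47.8% of all genes tested. The constitutive catalytic subunits fell most, namely Psmb5 from 27.3 ± 2.18 to 2.60 ± 0.529 CPM (-3.43), Psmb6 from 155.1 ± 13.5 to 32.4 ± 2.68 CPM (-2.33) and Psmb7 by 1.67. Psmb10, the immunoproteasome counterpart of Psmb7, was also lower (-1.16), as were Psme1 (-0.38) and Psme2 (-0.76), which form the PA28 activator. The proteasome genes listed thus did not share the direction of Tap1, Tap2 and Tapbp.

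Of 17 other class I and class I-like genes listed, 16 were matched and 12 tested. In mOPCs 6 were higher and 6 lower (median -1.15), near the 43.4% and 47.8% over all genes tested. H2-M5 had 2589 tags in mESCs and 1 in mOPCs, a ratio of 3253 (95% exact interval 583 to 128543, counting error only). H2-Q6 and H2-Q7 had 148 and 234 tags in mESCs and 0 in mOPCs, which is at least 62.0-fold and 98.0-fold lower. H2-Q10 was also lower, with 2.79 ± 0.534 against 0.0673 ± 0.0583 CPM and 0 tags in 1 mOPC library. In the other direction, H2-T23, whose product Qa-1 displays leader peptides of class I molecules, had 2 tags in mESCs and 119 in mOPCs, 47.4 times the level (95% exact interval 12.8 to 396). Mr1, which presents vitamin B metabolites, rose from 0.190 ± 0.100 to 6.62 ± 0.433 CPM (5.23 on the log2 scale), and Fcgrt, the neonatal Fc receptor chain that pairs with B2m, from 0.770 ± 0.103 to 14.3 ± 2.59 CPM (4.11). H2-Q4 was higher as well, at 15.0 ± 1.23 against 45.8 ± 3.37 CPM. The starts of these genes were not searched in transcripts of other genes. For the H2 genes among them, loss of tags from alleles that differ from mm10 was not tested.

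**Figure D5:**
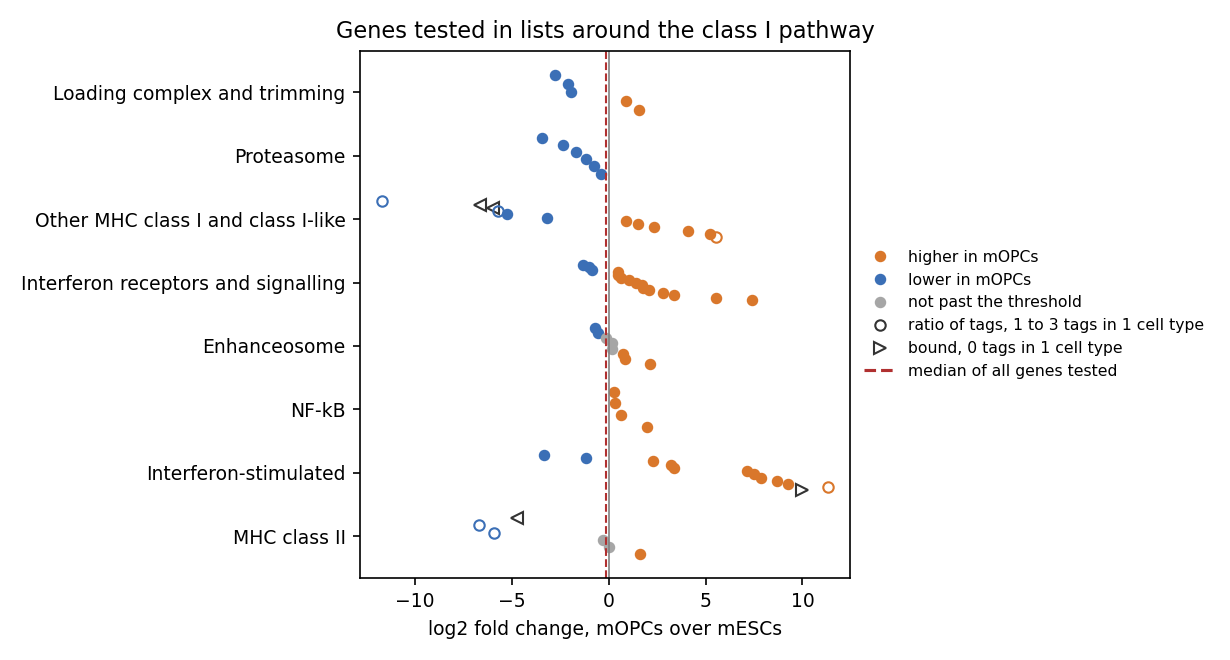
Log2 fold change (mOPCs over mESCs) of every gene tested in 8 lists around the class I pathway, coloured by the edgeR call, with open circles for ratios from 1 to 3 tags, triangles for bounds against 0 tags and a dashed line at the median of all genes tested. All 6 proteasome genes lie below 0, and 10 of 12 interferon-stimulated genes lie above 0.

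Genes that interferons are known to induce had a median log2 fold change of 7.31, beside 1.46 for the class I genes. Of 12 interferon-stimulated genes, 10 were higher and 2 lower, beside 43.4% higher among all genes tested. Ifit3, which inhibits viral RNA translation with Ifit1, had 0 tags in mESCs and 48.8, 39.1 and 38.4 CPM in mOPCs, at least 1000-fold higher. Usp18, which removes the ubiquitin-like Isg15 from proteins, had 1 tag in mESCs and 3222 in mOPCs, a ratio of 2564 (95% exact interval 460 to 101311). Isg15 itself went from 0.0576 ± 0.0602 to 38.8 ± 5.53 CPM (log2 fold change 9.28). The exceptions were Bst2 (tetherin), which fell from 73.7 ± 12.0 to 7.66 ± 0.630 CPM (-3.33), and the chemokine gene Cxcl10, which fell by 1.19 on the log2 scale. The list was chosen with earlier results of these data known, so its direction is not independent evidence.

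Of 15 genes of interferon receptors and signalling, 12 were higher and 3 lower in mOPCs, with a median of 1.40, beside 43.4% higher and 47.8% lower among all genes tested. Irf2, an Irf1 relative that binds the same element, rose from 0.359 ± 0.0513 to 65.2 ± 3.20 CPM (7.38). Irf7, a driver of type I interferon genes, rose from 0.122 ± 0.0635 to 6.18 ± 0.236 CPM (5.54). The genes that fell were Irf8 (-1.32), Irf3 (-1.003) and Socs1 (-0.85), the last an inhibitor of JAK signalling.

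The factors of the class I enhanceosome changed less. Of 8 genes, 3 were higher (Rfx5 2.16, Rfxank 0.87 and Nfyc 0.74), 2 were lower (Nfyb -0.69 and Creb1 -0.53) and 3 did not pass the test, with a median of 0.162. Among all genes tested, 43.4% were higher and 47.8% lower. All 4 NF-kB genes tested were higher (43.4% of all genes tested were), led by Rela (9.44 ± 0.789 to 39.7 ± 3.67 CPM, 1.99), Nfkb1 (0.65) and Nfkb2 (0.33), with a median of 0.493. Class II genes did not rise with the class I genes as a list. Of 7 genes, 6 were tested, and 1 was higher and 3 lower, beside 43.4% higher and 47.8% lower among all genes tested. The median was -2.89, or -2.51 with H2-Eb1, at 0 tags in mOPCs, put at its bound. H2-DMa, part of the class II peptide exchanger, rose from 37.9 ± 4.59 to 120.8 ± 10.2 CPM (1.61). H2-Ab1, a class II chain, had 164 tags in mESCs and 2 in mOPCs, a ratio of 103 (95% exact interval 28.1 to 858). Ciita, the class II transactivator and a relative of Nlrc5, had 48 and 1 tags, a ratio of 60.3 (10.3 to 2431). H2-Eb1 had 64 tags in mESCs and was at least 26.8-fold lower. For these H2 genes too, loss of tags from alleles that differ from mm10 was not tested.

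Between the starts of H2-K1 and H2-D1 on chromosome 17 (34000347 to 35262730), 62 genes other than those listed were tested, of which 28 were higher and 28 lower in mOPCs, near the 43.4% and 47.8% over all genes tested. Their median log2 fold change was 0.0877. Some of these genes share most of their tags through overlapping windows, so the counts are not all of separate signals. Slc39a7 and Gm20427, for example, had 4186 and 4187 tags in mESC replicate 1, and Ring1 and Gm26940 had 148 and 145.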

How the data were processed

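CAGE was measured on nuclear RNA of 3 mESC and 3 mOPC libraries. By the authors' CAGE methods, reads were trimmed to tags of 21 to 27 bases and aligned to mm10 with bowtie. Up to 2 mismatches were allowed and unique alignments kept. Another section of these methods names STAR for CAGE reads, with low-quality alignments removed. The submitters' processing notes name BWA 0.5.9 and CASAVA 1.8. Which one made these files is not resolved here, so whether only unique alignments were kept in them is not known. The deposited values are raw counts of tags by 5′ position and strand, without normalization or molecular identifiers, so intervals cover counting error only. Unique alignment can lower the counts of genes with close relatives, such as H2 genes.

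Tags within 500 bp of the 5′ ends of 21951 genes for proteins and 13374 for long non-coding RNAs in GENCODE vM21 were summed. In R 4.3.3, edgeR 4.0.16 tested the counts by quasi-likelihood (library totals with TMM factors, filterByExpr, robust fit), and DESeq2 1.42.0 was an alternative. SE is the log2 fold change, without its sign, divided by the root of the F statistic. Counting used Python 3.11.15 with pandas 2.3.3, scipy 1.17.1 and numpy 2.4.6, and matplotlib 3.10.9 drew the figures. The fit was tested on simulated data with 200 changed genes, of which 195 were recovered, with 9 false among 204 calls. In the real data 7251 genes were called higher and 7992 lower, so the simulation does not test the scaling under so many changes. Bounds against 0 tags use 3 tags over the pooled group and take the tags of the other cell type as exact. Sequences come from GENCODE transcripts and RefSeq promoters, which held no entry for Tap2 and Nlrc5.

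The genes and lists were chosen with earlier results of these data known. Named genes are all 10 listed genes, the up to 3 largest rises and falls past the threshold of each list, and list genes of at least 1 CPM in a cell type with no tag in a library of the other. H2-Q4, Psmb10, Psme1 and Psme2 were named after their values were seen. A gene that the rule names is not reported here. Alternatives were other scalings, tools, filters, windows, shared tags, depth, leaving out each library, and a replicate block.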

Additional observations from a re-analysis of the deposited data

Results flagged for a closer look

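Tags on the strand opposite to a gene were not part of the comparison. Where no annotated gene starts on that strand within the window, B2m, H2-K1 and H2-D1 had more than 3 such tags in a cell type. At B2m there were 8 such tags over the mESC libraries and 55 over the mOPC libraries, or 0.0528, 0.12 and 0.217 CPM against 0.593, 0.659 and 0.562 CPM. At H2-K1 there were 8 in mESCs and 18 in mOPCs. At H2-D1 there were 39 in mOPCs. No test was run on these tags.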

How the results depend on the processing

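Each of the 9 genes tested was fitted under 16 alternatives. Direction was the same in each, and 139 of the 144 values stayed on the same side of the threshold. The exceptions were the 5 values of Psmb9 with an adjusted p above 0.05: 0.36 on the log2 scale with DESeq2, 0.35 with libraries thinned to equal depth, 0.39 and 0.38 without mESC replicate 2 or 3, and 0.41 without mOPC replicate 2. The cause was not tested. The number of class I genes higher in mOPCs was accordingly 7 or 8. Without the filter on low counts, 2 were lower, since Psmb8 then entered the test. The search for the start positions in other transcripts found 0 matches with 27 bases and 3 with 21 bases. The H2-D1 value of 3.44 within 100 bp rests on 3 mESC and 48 mOPC tags, and its main start then lies at 35262695 in mESCs and 35262741 in mOPCs. H2-K1 ranged from -3.07 to -2.88 and B2m from 0.29 to 0.59. Genes higher in mOPCs numbered 6583 to 8249 over all alternatives. With the replicate number as a replicate block, 7228 genes were higher and no call on a class I gene changed. Same-numbered libraries did not deviate together (correlations -0.00332, 0.0595 and 0.0064), while other pairs reached -0.0673 and 0.0682. No pairing by number was thus seen, but whether same-numbered libraries share a batch cannot be told from this. Psmb9 had the fewest tags in mESCs of the genes tested, 40 to 88 per library, and Psmb8 did not pass the filter on low counts.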
